A study of Mus musculus with 16 samples.

Results

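The genes described here encode the transport machinery of the cilium and the axonemal dyneins. They are the 37 probe sets whose platform symbol matches an intraflagellar transport (Ift) number, a Bardet-Biedl (Bbs) number, an axonemal dynein heavy chain (Dnah) number, or one of the intermediate and light chain symbols Dnaic1, Dnaic2, Dnal1, Dnal4 and Dnali1. They were taken from 19572 probe sets with 1 gene symbol. Of the 37, 14 were Ift, 8 were Bbs, 10 were Dnah and 5 were intermediate or light chain genes, and each symbol had 1 probe set. The RNA measured on the 16 Clariom S arrays came from cells sorted from the olfactory mucosa of S100a5-tauGFP mice, in 4 groups of 4 arrays. The groups were GFP+ and GFP- cells of mice that received a 100% citrus accord, an odorant mixture, and GFP+ and GFP- cells of mice that received filtered air as the vehicle. All 24 mice, males and females between 7 and 12 weeks old, carried the reporter, in which GFP is driven through S100a5, a gene that sensory neurons of the nose express in an activity-dependent way. Mice spent 40 h in single chambers under an air flow of 3.1 L/min, with pulses of 10 s every 20 min in the time after the first 26 h. Each array holds RNA of cells pooled from 3 mice, so animals within a pool cannot be told apart.

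A cilium is built and kept up by intraflagellar transport (IFT), in which trains of IFT-B and IFT-A complexes are carried outward by kinesin and back by cytoplasmic dynein, and by the BBSome, a coat-like complex of Bardet-Biedl proteins that rides on these trains and moves membrane proteins in and out. Axonemal dyneins are other motors: their arms on the axoneme make a cilium beat. Olfactory sensory neurons (OSNs) carry long sensory cilia that hold the odorant receptors, and in mammals these cilia lack dynein arms, while the ciliated cells of the respiratory epithelium, which adjoins the olfactory mucosa, have motile cilia with dynein arms. Genes for motile cilia and many transport genes carry an X-box, the binding site of RFX transcription factors, near their start.

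Promoter sequence was taken from RefSeq (GRCm38.p6), in windows of 250 bases before to 50 bases after the start used in that table. Windows were found for 34 of the 37 genes; Ift122, Ift80 and Ift81 had none in the table. On either strand, an X-box lay in the windows of Ift57, Bbs1, Dnaic1 and Dnaic2, which is 4 of 34 genes (11.8%), against 285 of 15691 genes with a tested probe set (1.82%). The shorter motif GTTGCC (or GGCAAC on the other strand), which also lies within some X-boxes, was in 11 of 34 windows (32.4%), against 2175 of 15691 genes (13.9%). Ift57, which was higher in GFP+ cells of citrus mice, had 2 X-boxes, and its upstream window at chr16:49699187-49699266 on the plus strand is shown with both in capitals. The X-boxes of Dnaic1 (chr4:41569775-41569787, plus strand) and Dnaic2 (chr11:114727386-114727398, plus strand), outer-arm intermediate chains that were not called in any comparison, are shown for comparison. These 2 motifs lie before the start used in the promoter table but inside the annotated genes, 128 and 6045 bases past their first annotated base, so they are not upstream of every transcript.
Ift57: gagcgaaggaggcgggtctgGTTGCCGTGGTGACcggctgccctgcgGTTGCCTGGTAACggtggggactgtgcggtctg
Dnaic1: GTTGCTGGGTAAC
Dnaic2: GTTGCTAGGCAAC
These matches describe the letters of the windows only. Of the RFX genes, Rfx3 was above background on all 16 arrays and did not pass the test between the fractions (log2 difference 0.08 in citrus and -0.18 in vehicle mice). Rfx4 was called higher in GFP+ cells in both stimuli and Rfx2 in citrus mice. Both were below background on most or all arrays, and their values are given with the regulators of multiciliated cells.

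The deposited values are log2 signals for which 1 label names SST-RMA, a robust multi-array average that can stretch the scale, so differences are given as log2 differences and not as fold changes, and the level of one probe set is not set against that of another. The 95th percentile of the negative-control probe sets lay between 8.75 and 9.71 over the arrays, and is called background below. S100a5, the reporter gene, was higher in GFP+ than in GFP- cells by 1.88 ± 0.13 in citrus mice and by 1.91 ± 0.13 in vehicle mice (limma adjusted p = 8.6e-09 and 8.4e-09; ± is the standard error of the fit, n = 4 arrays a group). Of 15 mature OSN markers, 5 were higher in citrus and 4 in vehicle mice, none was lower, and the median difference was 0.43 and 0.32. Omp, the marker of mature OSNs, was near the top of the scale in every group (18.83 to 19.42) and was not called. Lower in GFP+ cells were all 14 measured white blood cell markers in both stimuli (median -6.70 and -6.40), 12 and 10 of 12 microvillous cell markers, 6 of 12 immature OSN markers in each, all 6 globose basal and cycling cell markers in each, 4 and 3 of 11 sustentacular cell markers and 4 and 2 of 10 Bowman gland markers. Of 8 horizontal basal cell markers none passed, and respiratory ciliated cell markers, given with the dynein results, were in part higher. The GFP- arrays of pool 1 stood apart in both stimuli for the sustentacular and microvillous markers. The mean of the sustentacular markers was 9.24 in that citrus GFP- array, against 10.37 to 11.06 in the other citrus GFP- arrays, and 7.46 in that vehicle GFP- array, against 10.34 to 10.80 in the others. The mean of the microvillous markers was 7.57, against 8.10 to 8.56, in citrus and 6.86, against 8.07 to 8.55, in vehicle GFP- arrays. These arrays also had the highest mean over the 37 genes among the GFP- arrays (9.49 in citrus and 9.64 in vehicle, against 9.16 to 9.30 in the other 6), and their pools had the smallest mean gate difference of the 37 genes (0.27 and 0.19, against 0.37 to 0.48). The GFP+ arrays of pool 1 shared part of this. Their sustentacular mean was 7.60 in citrus mice, against 8.21 to 9.28, and 7.17 in vehicle mice, against 8.31 to 9.15. Their mean over the 37 genes was 9.76 in citrus mice, against 9.64 to 9.76, and 9.83 in vehicle mice, against 9.60 to 9.74. The white blood cell mean of GFP- pool 1 was 11.33 in citrus mice, against 12.19 to 13.10. In vehicle mice it was 12.03, within the 11.81 to 12.73 of the other GFP- arrays. In bulk RNA of sorted cells, fewer cells of a type and less RNA per cell cannot be told apart. How far the other cells in the GFP- fraction enter the differences below was not tested.

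Of the 37 genes, 22 were above background on all 16 arrays, 3 on some and 12 on none (plot of values by array). The median of all tested probe sets was 6.01 to 6.42 over the arrays, which is itself below background. All 14 Ift genes were above it on every array. Of the Bbs genes, Bbs1, Bbs2, Bbs4, Bbs7 and Bbs9 were above it on all arrays and Bbs5 on 10, while Bbs10 and Bbs12, which encode chaperonin-like proteins for BBSome assembly, were not above it on any. Of the 10 heavy chains only Dnah11 was above background on all arrays, with Dnah7a on 13. Dnah1, Dnah2, Dnah5, Dnah6, Dnah8, Dnah9, Dnah10 and Dnah17 were never above it, nor were Dnaic1 and Dnaic2. Dnal1 and Dnal4 were above it on all arrays and Dnali1 on 14. A gene below background can still differ between groups, but its level cannot be told from that of a negative control.

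**Figure D1:**
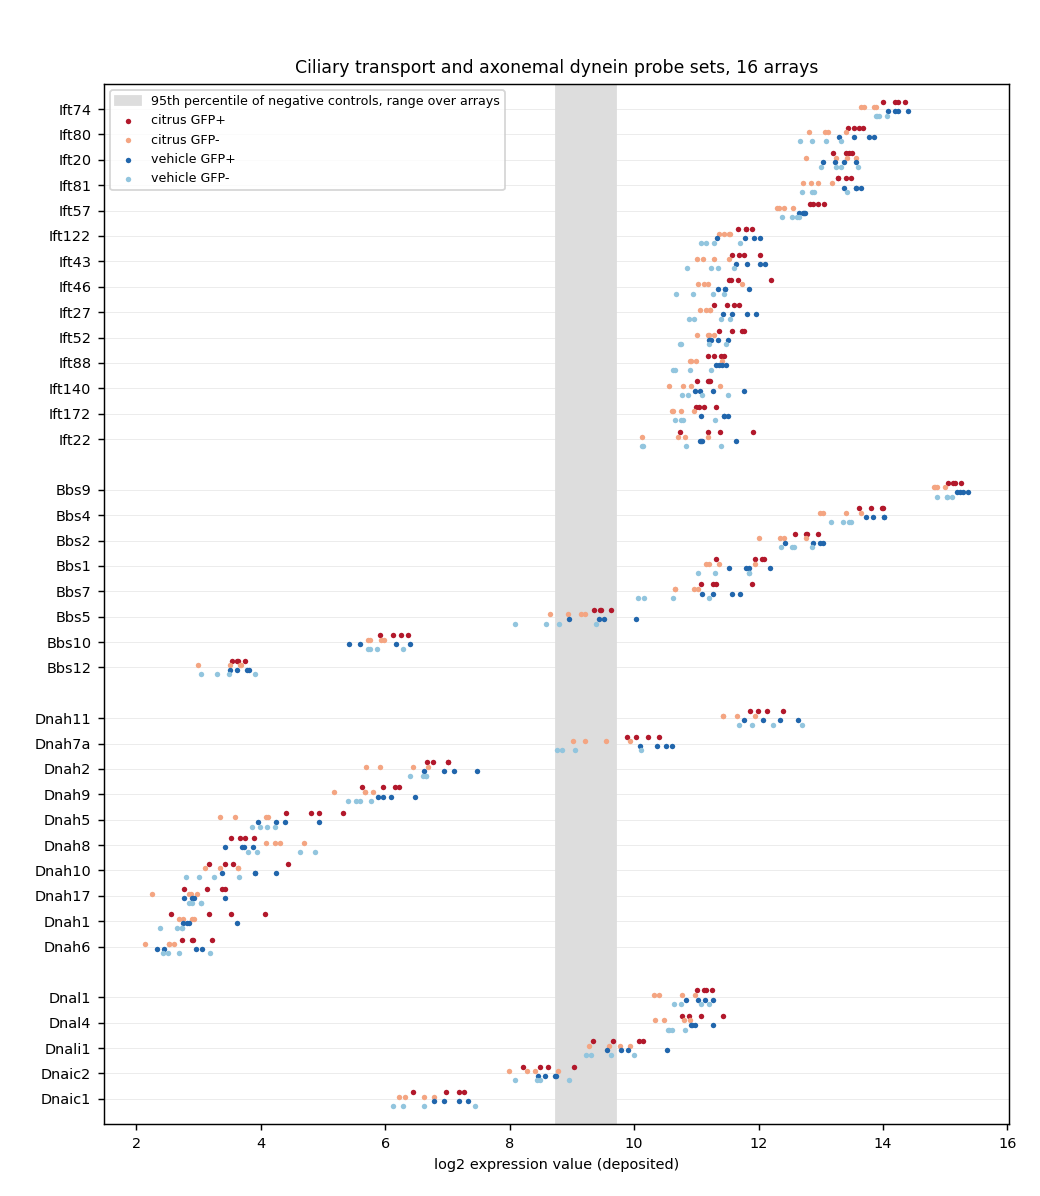
Deposited log2 value of each of the 37 genes (rows, ordered within a family by mean value for layout only) on each of the 16 arrays, with citrus GFP+, citrus GFP-, vehicle GFP+ and vehicle GFP- in that order from top to bottom in each row. The grey band spans the 95th percentile of the negative controls over the arrays (8.75 to 9.71); all 14 Ift genes lie to its right, and 8 of the 10 heavy chains lie to its left on every array.

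The first question was whether the transport and dynein genes differed between the fraction with an active S100a5 reporter and the rest. They were mostly higher in GFP+ cells by small amounts. In citrus mice 6 of the 37 genes were called higher (adjusted p under 0.05, limma over all 19572 probe sets) and none lower, where 7.44% of all probe sets were called higher and 10.8% lower. Before adjustment, 21 of the 37 had a p under 0.05 with a higher and 1 with a lower value, where 17% and 13.8% of all probe sets did. In vehicle mice 10 were called higher and none lower, with 9.05% and 9.97% of all probe sets. Before adjustment, 18 were higher and 1 lower, with 17.8% and 13.5% of all probe sets. The 37 differences had a median of 0.43 in citrus mice and 0.38 in vehicle mice, where all probe sets had 0.13 and 0.11. The difference was positive for 36 of the 37 genes in citrus mice, where 65.4% of all probe sets were positive, and for 34 in vehicle mice, where 62.2% were.

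The groups did not overlap for 15 higher genes and 1 lower gene in citrus mice (11.7% and 11% of all probe sets) and for 8 higher genes and no lower gene in vehicle mice (10.9% and 9.96%). The 2 sets of calls shared only Bbs4, which is 16.7% of the citrus calls and 10.0% of the vehicle calls. The interaction term passed the test for no gene, so a call in one stimulus alone does not show that the stimuli differ. GFP+ and GFP- arrays of one replicate number were taken as cells of the same mice, since 16 arrays of 3 mice each came from 24 mice. With this pool as a block, 11 genes were called higher and 1 lower in citrus mice, and 12 higher and 1 lower in vehicle mice. Of all probe sets, this fit called 10.5% higher and 11.9% lower in citrus mice and 12.1% higher and 11.2% lower in vehicle mice. Under it the calls of the stimuli shared 5 higher genes (Bbs4, Dnah7a, Ift43, Ift80 and Ift81) and 1 lower gene (Dnah8).

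Both counts changed with the scaling and when single pools were left out. Relative to the mature OSN markers, that is with each array centred on their mean, the differences of all genes shift by -0.44 in citrus and -0.38 in vehicle mice. The median of the 37 genes was then -0.01 and 0, no gene was called higher in citrus mice and 1 (Dnah7a) in vehicle mice, and Dnah8 was called lower in both. Of all probe sets, 2.51% and 2.41% were called higher and 23.1% and 20.6% lower under this centring. The median of all tested probe sets was 6.01 to 6.11 on the GFP+ arrays and 6.29 to 6.42 on the GFP- arrays. With the median of each array set to a common value, which shifts all differences by 0.33 and 0.28, 34 and 28 were called higher, with 46.6% and 36.2% of all probe sets. In citrus mice the count of 6 became 7 without pool 1, 3 without pool 3 and 2 without pool 4. In vehicle mice the count of 10 became 1 without pool 2 and 3 without pool 3 or pool 4. Without vehicle pool 1 it was 10 higher and 1 lower. Each of these runs had fewer arrays, and the share of all probe sets called in them is not given here. Whether these changes are particular to the 37 genes was not tested.

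The IFT-B genes come first. Ift57, a peripheral IFT-B subunit, was higher in GFP+ cells of citrus mice. Ift57 had 12.88, 13.05, 12.82 and 12.96 in the citrus GFP+ arrays, against 12.33, 12.41, 12.55 and 12.30 in the citrus GFP- arrays. It had 12.65, 12.73, 12.71 and 12.75 in the vehicle GFP+ arrays, against 12.62, 12.53, 12.37 and 12.65 in the vehicle GFP- arrays. The citrus groups did not overlap, while the vehicle groups did. The difference was 0.53 ± 0.12 in citrus mice (adjusted p = 0.0049, limma) and 0.17 ± 0.12 in vehicle mice (adjusted p = 0.39), higher in 4 of 4 pools in each.

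Ift74 and Ift81 form the pair in the IFT-B core that binds tubulin. Ift74 had 14.20, 14.35, 14.24 and 14.0 in the citrus GFP+ arrays, against 13.88, 13.86, 13.69 and 13.64 in the citrus GFP- arrays. It had 14.40, 14.24, 14.08 and 14.20 in the vehicle GFP+ arrays, against 14.07, 13.91, 13.93 and 13.89 in the vehicle GFP- arrays. Neither pair of groups overlapped, and Ift74 was called in citrus mice (0.43 ± 0.13, adjusted p = 0.029) and not in vehicle mice (0.28 ± 0.13, adjusted p = 0.15). Ift81 had 13.27, 13.41, 13.49 and 13.28 in the citrus GFP+ arrays, against 13.18, 12.72, 12.96 and 12.84 in the citrus GFP- arrays. It had 13.57, 13.65, 13.57 and 13.38 in the vehicle GFP+ arrays, against 13.42, 12.86, 12.89 and 12.69 in the vehicle GFP- arrays. The lowest citrus GFP+ array of Ift81 lay just above the highest GFP- array, and in vehicle mice the GFP- array of pool 1 reached into the GFP+ range. Ift81 differed by 0.44 ± 0.16 in citrus mice (adjusted p = 0.071; 0.042 with the pool as a block) and was called in vehicle mice (0.58 ± 0.16, adjusted p = 0.017).

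Ift80, Ift88 and Ift172, further IFT-B subunits, were higher in GFP+ cells of vehicle mice. Ift80 had 13.44, 13.54, 13.68 and 13.61 in the citrus GFP+ arrays, against 13.40, 12.81, 13.12 and 13.06 in the citrus GFP- arrays. It had 13.78, 13.86, 13.30 and 13.54 in the vehicle GFP+ arrays, against 13.33, 12.86, 13.09 and 12.67 in the vehicle GFP- arrays. Its citrus groups did not overlap, and in vehicle mice pool 1 of the GFP- arrays lay level with the lowest GFP+ array. The difference was 0.47 ± 0.17 in citrus mice (adjusted p = 0.074; 0.046 with the pool as a block) and 0.63 ± 0.17 in vehicle mice (adjusted p = 0.016). Ift88 had 11.18, 11.44, 11.28 and 11.39 in the citrus GFP+ arrays, against 11.41, 10.91, 10.90 and 11.0 in the citrus GFP- arrays. It had 11.48, 11.41, 11.31 and 11.36 in the vehicle GFP+ arrays, against 11.23, 10.63, 10.65 and 10.89 in the vehicle GFP- arrays. In citrus mice the GFP+ array of pool 1 was below its GFP- partner (0.27 ± 0.16, adjusted p = 0.27), while all vehicle GFP+ arrays of Ift88 were above all vehicle GFP- arrays (0.54 ± 0.16, adjusted p = 0.023). Ift172 had 10.99, 11.04, 11.31 and 11.12 in the citrus GFP+ arrays, against 10.96, 10.60, 10.75 and 10.62 in the citrus GFP- arrays. It had 11.50, 11.44, 11.08 and 11.44 in the vehicle GFP+ arrays, against 11.30, 10.79, 10.75 and 10.66 in the vehicle GFP- arrays. The vehicle GFP+ array of pool 3 was low and below 1 GFP- array, and Ift172 differed by 0.38 ± 0.16 in citrus mice (adjusted p = 0.12) and by 0.49 ± 0.16 in vehicle mice (adjusted p = 0.042).

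Of the IFT-A genes Ift43, Ift122 and Ift140, only Ift43 was called. Ift43 had 12.03, 11.57, 11.68 and 11.76 in the citrus GFP+ arrays, against 11.53, 11.01, 11.28 and 11.11 in the citrus GFP- arrays. It had 12.11, 12.02, 11.81 and 11.64 in the vehicle GFP+ arrays, against 11.60, 11.35, 11.24 and 10.85 in the vehicle GFP- arrays. The groups overlapped in neither stimulus. The difference was 0.53 ± 0.18 in citrus mice (adjusted p = 0.051; 0.022 with the pool as a block) and 0.63 ± 0.18 in vehicle mice (adjusted p = 0.019).

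Ift20, an IFT-B subunit that also sits at the Golgi, gave no call. Ift20 had 13.45, 13.20, 13.50 and 13.41 in the citrus GFP+ arrays, against 13.56, 13.42, 13.25 and 12.76 in the citrus GFP- arrays. It had 13.56, 13.03, 13.38 and 13.22 in the vehicle GFP+ arrays, against 13.59, 13.24, 13.32 and 13.0 in the vehicle GFP- arrays. The groups overlapped in both stimuli, with a difference of 0.14 ± 0.18 in citrus mice and 0.01 ± 0.18 in vehicle mice. The other Ift genes were Ift22, Ift27, Ift46, Ift52, Ift122 and Ift140. Their differences were between 0.25 and 0.60 in citrus mice and between 0.21 and 0.58 in vehicle mice, without a call. With the pool as a block Ift52 was called in citrus mice (adjusted p = 0.047), and Ift27, a small GTPase of IFT-B needed for BBSome export, and Ift122 in vehicle mice (adjusted p = 0.028 and 0.037). All 14 Ift differences were positive in both stimuli. Averaged over the 14 genes, the difference within a pool was 0.20, 0.50, 0.44 and 0.45 in citrus pools 1 to 4 and 0.24, 0.56, 0.28 and 0.58 in vehicle pools 1 to 4. The same average over the mature OSN markers was 0.31, 0.36, 0.59 and 0.48 in citrus pools and 0.33, 0.34, 0.29 and 0.58 in vehicle pools. Over the respiratory ciliated cell markers it was 0.31, 0.39, 0.52 and 0.37 in citrus pools and 0.36, 0.54, 0.38 and 0.46 in vehicle pools.

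Among the Bbs genes, Bbs4, a BBSome subunit whose loss in mice thins the olfactory cilia, was called higher in both stimuli. Bbs4 had 13.62, 13.99, 14.0 and 13.81 in the citrus GFP+ arrays, against 12.98, 13.65, 13.40 and 13.04 in the citrus GFP- arrays. It had 14.01, 14.02, 13.72 and 13.84 in the vehicle GFP+ arrays, against 13.49, 13.16, 13.36 and 13.46 in the vehicle GFP- arrays. The vehicle groups did not overlap, while in citrus mice the GFP- array of pool 2 was just above the GFP+ array of pool 1. The difference was 0.59 ± 0.16 in citrus mice (adjusted p = 0.018) and 0.53 ± 0.16 in vehicle mice (adjusted p = 0.032), higher in 4 of 4 pools in each.

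Bbs7, another BBSome subunit, was called in vehicle mice. Bbs7 had 11.31, 11.08, 11.89 and 11.27 in the citrus GFP+ arrays, against 11.03, 10.66, 10.96 and 10.66 in the citrus GFP- arrays. It had 11.58, 11.26, 11.70 and 11.09 in the vehicle GFP+ arrays, against 11.21, 10.15, 10.63 and 10.06 in the vehicle GFP- arrays. The citrus groups were separated by a narrow gap, and in vehicle mice the GFP- array of pool 1 was high. The difference was 0.56 ± 0.24 in citrus mice (adjusted p = 0.12) and 0.90 ± 0.24 in vehicle mice (adjusted p = 0.013). Bbs5 had 9.63, 9.45, 9.36 and 9.47 in the citrus GFP+ arrays, against 9.14, 8.64, 8.94 and 9.21 in the citrus GFP- arrays. It had 10.03, 9.44, 9.51 and 8.96 in the vehicle GFP+ arrays, against 9.38, 8.79, 8.58 and 8.08 in the vehicle GFP- arrays. Bbs5, a BBSome subunit that binds membrane lipids, lay around background, with the highest value in the vehicle GFP+ array of pool 1. It was not called in citrus mice (0.50 ± 0.25, adjusted p = 0.18) and was called in vehicle mice (0.77 ± 0.25, adjusted p = 0.036).

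Bbs9 and Bbs2, both BBSome subunits, gave no call. Bbs9 had 15.04, 15.16, 15.26 and 15.13 in the citrus GFP+ arrays, against 14.87, 14.82, 14.83 and 14.99 in the citrus GFP- arrays. It had 15.36, 15.23, 15.28 and 15.19 in the vehicle GFP+ arrays, against 15.11, 14.86, 15.03 and 15.03 in the vehicle GFP- arrays. The GFP+ arrays of Bbs9 were above the GFP- arrays in both stimuli, yet by a small amount (0.27 ± 0.12 and 0.26 ± 0.12; adjusted p = 0.13 and 0.15). Bbs2 had 12.96, 12.59, 12.78 and 12.76 in the citrus GFP+ arrays, against 12.76, 12.34, 12.40 and 12.01 in the citrus GFP- arrays. It had 13.03, 12.42, 12.88 and 12.98 in the vehicle GFP+ arrays, against 12.85, 12.57, 12.36 and 12.53 in the vehicle GFP- arrays. The groups of Bbs2 overlapped in both stimuli (0.39 ± 0.18 in citrus and 0.25 ± 0.18 in vehicle mice). Bbs1 differed by 0.43 ± 0.24 in citrus and 0.34 ± 0.24 in vehicle mice without a call. For Bbs10 and Bbs12, which were below background everywhere, no difference passed the test (0.32 and 0.18 in citrus, -0.01 and 0.25 in vehicle mice).

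**Figure D2:**
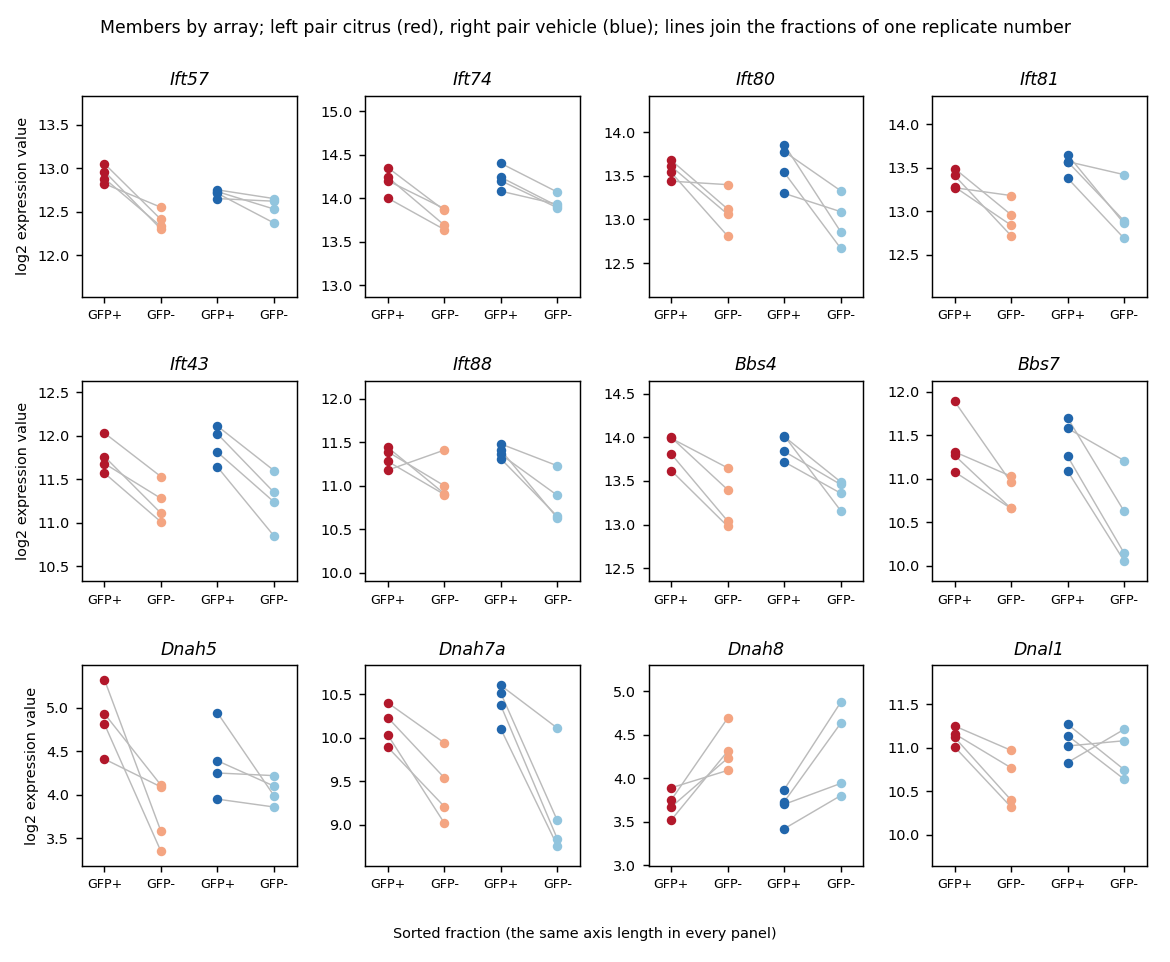
Log2 value of 12 genes in each array, with GFP+ left of GFP- and citrus (red) left of vehicle (blue); grey lines join arrays of one replicate number, and every vertical axis spans the same length. GFP+ points lie above GFP- points for most genes, and Dnah8 runs the other way in all 8 pools. The citrus groups overlap for Ift88, Bbs4 and Dnah7a and not for the other genes shown, of which Dnah5 and Dnah8 lie below background.

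The heavy chains are the motor subunits of the dynein arms. Dnah7a, a single-headed inner-arm chain, had the largest difference of the 37 genes in vehicle mice. Dnah7a had 10.40, 10.03, 10.23 and 9.89 in the citrus GFP+ arrays, against 9.94, 9.02, 9.54 and 9.21 in the citrus GFP- arrays. It had 10.60, 10.37, 10.51 and 10.10 in the vehicle GFP+ arrays, against 10.11, 8.84, 9.05 and 8.76 in the vehicle GFP- arrays. The vehicle GFP+ arrays were above all vehicle GFP- arrays but that of pool 1, which was level with the lowest of them. The difference was 0.71 ± 0.26 in citrus mice (adjusted p = 0.072; 0.037 with the pool as a block) and 1.21 ± 0.26 in vehicle mice (adjusted p = 0.0031). The vehicle call was kept under all 17 alternative settings, with an adjusted p of at most 0.031. Not all of these could change it much. Leaving out a citrus pool does not shift the vehicle difference, and setting the array medians to a common value raises it. Dnah7a is one of several near-identical copies, with Dnah7b and Dnah7c, so its probe set may read more than one gene.

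Dnah5, an outer-arm chain, had the largest difference in citrus mice, at values far below background. Dnah5 had 5.32, 4.93, 4.81 and 4.41 in the citrus GFP+ arrays, against 3.58, 4.11, 3.35 and 4.09 in the citrus GFP- arrays. It had 4.39, 4.94, 4.25 and 3.95 in the vehicle GFP+ arrays, against 4.10, 3.99, 4.22 and 3.86 in the vehicle GFP- arrays. The citrus groups did not overlap, the vehicle groups did, and the values of both lay among those of negative controls. The difference was 1.09 ± 0.23 in citrus mice (adjusted p = 0.0022) and 0.34 ± 0.23 in vehicle mice (adjusted p = 0.35).

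Dnah2, an inner-arm chain, was called in citrus mice, and Dnah9, an outer-arm chain, in vehicle mice, both below background. Dnah2 had 7.0, 7.0, 6.67 and 6.76 in the citrus GFP+ arrays, against 6.69, 5.69, 6.45 and 5.91 in the citrus GFP- arrays. It had 6.62, 7.48, 7.10 and 6.95 in the vehicle GFP+ arrays, against 6.39, 6.61, 6.65 and 6.65 in the vehicle GFP- arrays. Its groups overlapped in both stimuli, and 2 citrus GFP- arrays were low (0.67 ± 0.21, adjusted p = 0.036 in citrus; 0.46 ± 0.21, adjusted p = 0.15 in vehicle mice). Dnah9 had 5.63, 6.22, 6.15 and 5.97 in the citrus GFP+ arrays, against 5.81, 5.18, 5.67 and 5.68 in the citrus GFP- arrays. It had 5.89, 6.09, 6.48 and 5.96 in the vehicle GFP+ arrays, against 5.77, 5.40, 5.53 and 5.59 in the vehicle GFP- arrays. Its citrus groups overlapped (0.41 ± 0.18, adjusted p = 0.14) and its vehicle groups did not (0.54 ± 0.18, adjusted p = 0.047).

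Dnah11, an outer-arm chain, was the heavy chain above background on all arrays, and it was not called. Dnah11 had 12.39, 11.86, 12.13 and 11.99 in the citrus GFP+ arrays, against 11.94, 11.42, 11.43 and 11.66 in the citrus GFP- arrays. It had 12.34, 12.07, 12.64 and 11.77 in the vehicle GFP+ arrays, against 12.69, 12.23, 11.89 and 11.69 in the vehicle GFP- arrays. The groups overlapped in both stimuli, and in vehicle mice the GFP- array of pool 1 was the highest of all. The difference was 0.48 ± 0.23 in citrus mice (adjusted p = 0.16) and 0.08 ± 0.23 in vehicle mice (adjusted p = 0.85).

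Dnah8, an outer-arm chain known from sperm, was the 1 gene with a negative difference near the threshold in both stimuli. Dnah8 had 3.75, 3.52, 3.89 and 3.67 in the citrus GFP+ arrays, against 4.69, 4.31, 4.09 and 4.23 in the citrus GFP- arrays. It had 3.42, 3.70, 3.73 and 3.87 in the vehicle GFP+ arrays, against 3.80, 3.94, 4.63 and 4.87 in the vehicle GFP- arrays. GFP+ was lower than GFP- in 4 of 4 pools in each stimulus, without overlap in citrus mice, and all values were below background. The difference was -0.62 ± 0.22 in citrus mice (adjusted p = 0.054) and -0.63 ± 0.22 in vehicle mice (adjusted p = 0.051), and with the pool as a block the adjusted p was 0.028 and 0.027. The remaining heavy chains Dnah1, Dnah6, Dnah10 and Dnah17 were below background on every array and were not called, with differences between 0.22 and 0.51 in citrus mice and between 0.00 and 0.68 in vehicle mice.

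Dnal1, a light chain of the outer arm, was the only intermediate or light chain gene with a call. Dnal1 had 11.25, 11.12, 11.01 and 11.16 in the citrus GFP+ arrays, against 10.97, 10.40, 10.32 and 10.77 in the citrus GFP- arrays. It had 11.27, 10.83, 11.02 and 11.14 in the vehicle GFP+ arrays, against 10.75, 11.21, 11.08 and 10.64 in the vehicle GFP- arrays. The citrus groups were separated by a small gap and the vehicle groups overlapped. The difference was 0.52 ± 0.17 in citrus mice (adjusted p = 0.048) and 0.15 ± 0.17 in vehicle mice (adjusted p = 0.62). Dnal4 had 10.77, 11.43, 10.88 and 11.07 in the citrus GFP+ arrays, against 10.48, 10.80, 10.89 and 10.34 in the citrus GFP- arrays. It had 10.97, 10.93, 10.92 and 11.26 in the vehicle GFP+ arrays, against 10.81, 10.61, 10.55 and 10.56 in the vehicle GFP- arrays. The vehicle groups of Dnal4, a dynein light chain, did not overlap, yet neither difference was called (0.41 ± 0.17 in citrus and 0.38 ± 0.17 in vehicle mice; adjusted p = 0.11 and 0.13). Dnali1 had 10.07, 9.66, 10.14 and 9.34 in the citrus GFP+ arrays, against 9.78, 9.59, 9.94 and 9.27 in the citrus GFP- arrays. It had 10.53, 9.79, 9.56 and 9.90 in the vehicle GFP+ arrays, against 9.99, 9.30, 9.62 and 9.22 in the vehicle GFP- arrays. The groups of Dnali1, a light intermediate chain of the inner arm, overlapped in both stimuli (0.16 ± 0.24 and 0.41 ± 0.24). Dnaic1 differed by 0.48 ± 0.25 in citrus and 0.44 ± 0.25 in vehicle mice and Dnaic2 by 0.23 ± 0.21 and 0.13 ± 0.21, both below background and without a call.

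**Figure D3:**
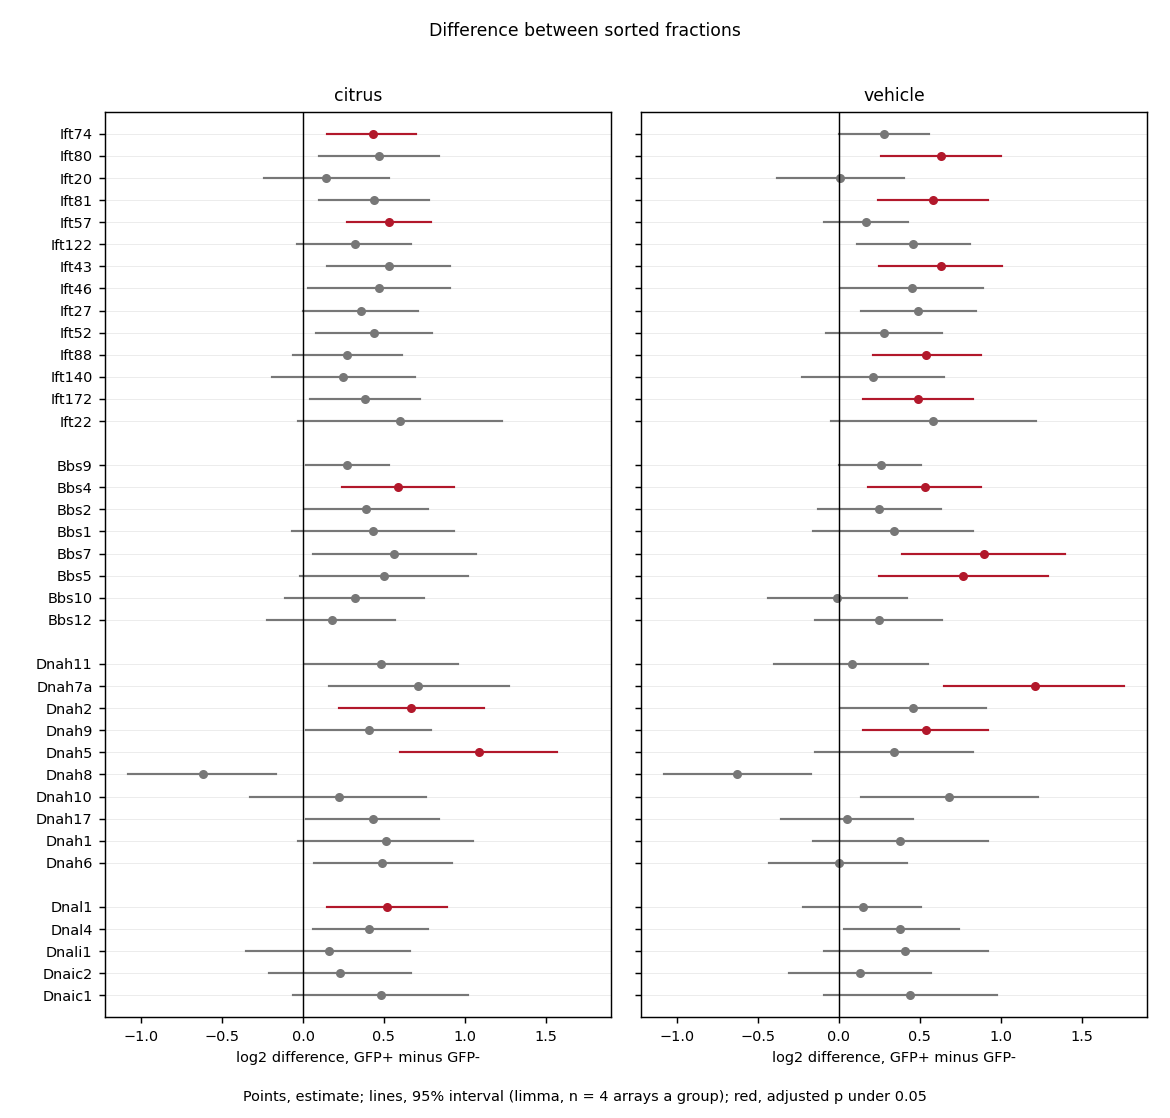
Log2 difference, GFP+ minus GFP-, of each gene with its 95% interval, for citrus mice (left) and vehicle mice (right), with calls at an adjusted p under 0.05 in red. There are 6 red points on the left and 10 on the right, all above 0, and Dnah8 is the 1 gene whose interval lies below 0 on both sides.

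Other genes of the same machinery were taken from lists of textbook components that do not hold the 37, and most of them did not pass the test. The counts of each list stand against the 7.44% of all probe sets called higher in citrus mice and the 9.05% in vehicle mice. Of 9 measured IFT genes with other symbols, 2 were called higher in citrus mice and 3 in vehicle mice, none lower, with a median of 0.38 and 0.47 (22.2% and 33.3% called higher). The train subunits Traf3ip1 (0.48 ± 0.15, adjusted p = 0.031) and Ttc30b (0.69 ± 0.22, adjusted p = 0.034) were called in citrus mice. Hspb11 (1.14 ± 0.21, adjusted p = 6e-04), Wdr35 (0.69 ± 0.19, adjusted p = 0.014) and Cluap1 (0.68 ± 0.18, adjusted p = 0.014) were called in vehicle mice, Hspb11 and Cluap1 at values below background on all arrays. Of 13 BBSome partners, 3 were higher in citrus mice and 1 in vehicle mice, none lower (median 0.34 and 0.35), which is 23.1% and 7.69%, the second of these below the share of all probe sets. The BBSome subunits Ttc8 (0.63 ± 0.16, adjusted p = 0.0097) and Bbip1 (0.55 ± 0.17, adjusted p = 0.028) and the ciliogenesis protein Wdpcp (0.51 ± 0.16, adjusted p = 0.030) were those of citrus mice, and Rab3ip, which activates the small GTPase of ciliary membrane delivery, that of vehicle mice (0.47 ± 0.14, adjusted p = 0.026).

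Of 14 motor genes of the cilium, 4 (28.6%) were higher in each stimulus and none lower (median 0.39 and 0.29), and these were the same 4 genes. Dync2li1, a subunit of the retrograde IFT motor, differed by 0.55 ± 0.18 in citrus and 0.86 ± 0.18 in vehicle mice (adjusted p = 0.037 and 0.0019). Wdr34, its intermediate chain, differed by 0.75 ± 0.16 and 0.59 ± 0.16 (adjusted p = 0.0022 and 0.014), the light chain Tctex1d2 by 0.90 ± 0.17 and 0.70 ± 0.17 (adjusted p = 6.1e-04 and 0.0060), and the shared light chain Dynll2 by 0.67 ± 0.19 and 0.69 ± 0.19 (adjusted p = 0.015 and 0.014). Of 16 transition zone genes, which form the gate at the base of the cilium, 3 and 4 were higher (18.8% and 25%) and none lower (median 0.39 and 0.54), among them Tmem17 (0.76 and 0.93), B9d2 (0.50 and 0.80) and Nphp4 (0.65 and 0.48). Cytoplasmic dynein 1, which moves cargo in the cell body and axon, was listed together with dynactin (Dctn) and regulator genes. The 14 genes of this list had a median of 0.03 and 0.14. In citrus mice 1 of them (the regulator Nde1, -0.66 ± 0.21, adjusted p = 0.031) was lower and none higher. In vehicle mice the dynactin genes Dctn3 (0.69 ± 0.16, adjusted p = 0.0044) and Dctn6 (0.43 ± 0.13, adjusted p = 0.025) were higher (14.3%). No dynein 1 subunit gene itself was called.

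Most genes that assemble and regulate motile axonemes did not pass the test either. Of 12 dynein assembly and docking genes, 2 (16.7%) were higher and 1 lower in citrus mice and 2 were higher in vehicle mice (median 0.47 and 0.37). Lrrc6, a dynein assembly factor, was called in both (0.52 ± 0.15 and 0.45 ± 0.15; adjusted p = 0.020 and 0.041), the axonemal thioredoxin Nme8 in citrus mice (0.96 ± 0.30, adjusted p = 0.033) and the assembly factor Dnaaf1 in vehicle mice (1.10 ± 0.31, adjusted p = 0.019), while the assembly factor Dnaaf3 was lower in citrus mice (-0.71 ± 0.19, adjusted p = 0.012). Of 18 radial spoke, central pair and dynein regulator genes, 4 (22.2%) were higher in each stimulus and none lower (median 0.39 and 0.34). The radial spoke protein Rsph9 (0.61 ± 0.19 and 0.74 ± 0.19, adjusted p = 0.029 and 0.0091) and Nme5 (0.56 ± 0.15 in each, adjusted p = 0.014 and 0.015) were called in both. Many genes of these lists were dim. Of the 12 assembly and docking genes, 2 were above background on all 16 arrays, 5 on some and 5 on none. Of the 18 genes of the radial spoke list, 9 were above it on all arrays, 2 on some and 7 on none.

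Markers of respiratory ciliated cells gave some calls in the direction of the dynein genes. Of 22 measured, 6 of which also stand in the radial spoke list, 3 (13.6%) were higher in citrus mice and 7 (31.8%) in vehicle mice, none lower, with a median of 0.48 and 0.41, and the others did not pass the test. Their summed level, as log2 of the sum, ranged over the arrays between 16.16 and 16.60 in citrus GFP+, 15.97 and 16.29 in citrus GFP-, 16.23 and 16.65 in vehicle GFP+ and 15.63 and 16.56 in vehicle GFP- cells. This sum is weighted to the probe sets of highest value and does not describe the list as a whole. The mean log2 value of the list was 8.26 to 8.53 in citrus GFP+ and 7.87 to 8.22 in citrus GFP- arrays. In vehicle mice it was 8.34 to 8.66 in GFP+ and 7.88 to 8.30 in GFP- arrays. Of the 22, 9 were above background on all GFP+ arrays and 10 on none of them, against 7 on all GFP- arrays and 12 on none. Tekt1, a tektin of the axoneme, differed by 0.88 ± 0.29 and 1.04 ± 0.29 (adjusted p = 0.045 and 0.019), and Rsph1, a radial spoke protein, was called in vehicle mice (1.12 ± 0.24, adjusted p = 0.0027). Foxj1, the regulator of motile cilia, was not analysed here. The part of respiratory ciliated cells in the dynein differences was not tested. Of 14 regulators of multiciliated cells and RFX genes, 3 were higher and 2 lower in citrus mice and 1 was higher and 3 lower in vehicle mice (median 0.04 and 0.02). Rfx4 was called in both (1.52 ± 0.25 and 0.76 ± 0.25, adjusted p = 2.1e-04 and 0.042), above background on 1 array, Deup1 in citrus mice (1.36 ± 0.19, adjusted p = 3e-05) and Rfx2 in citrus mice (0.55 ± 0.17, adjusted p = 0.029), both below background on every array. Myb was lower in both by more than any other gene of this list (-5.15 ± 0.43 and -5.07 ± 0.43, adjusted p = 9.4e-08 and 1.4e-07). Markers of white blood cells and of cycling cells were also lower in GFP+ cells, as given above. Which cells the Myb signal came from was not tested.

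**Figure D4:**
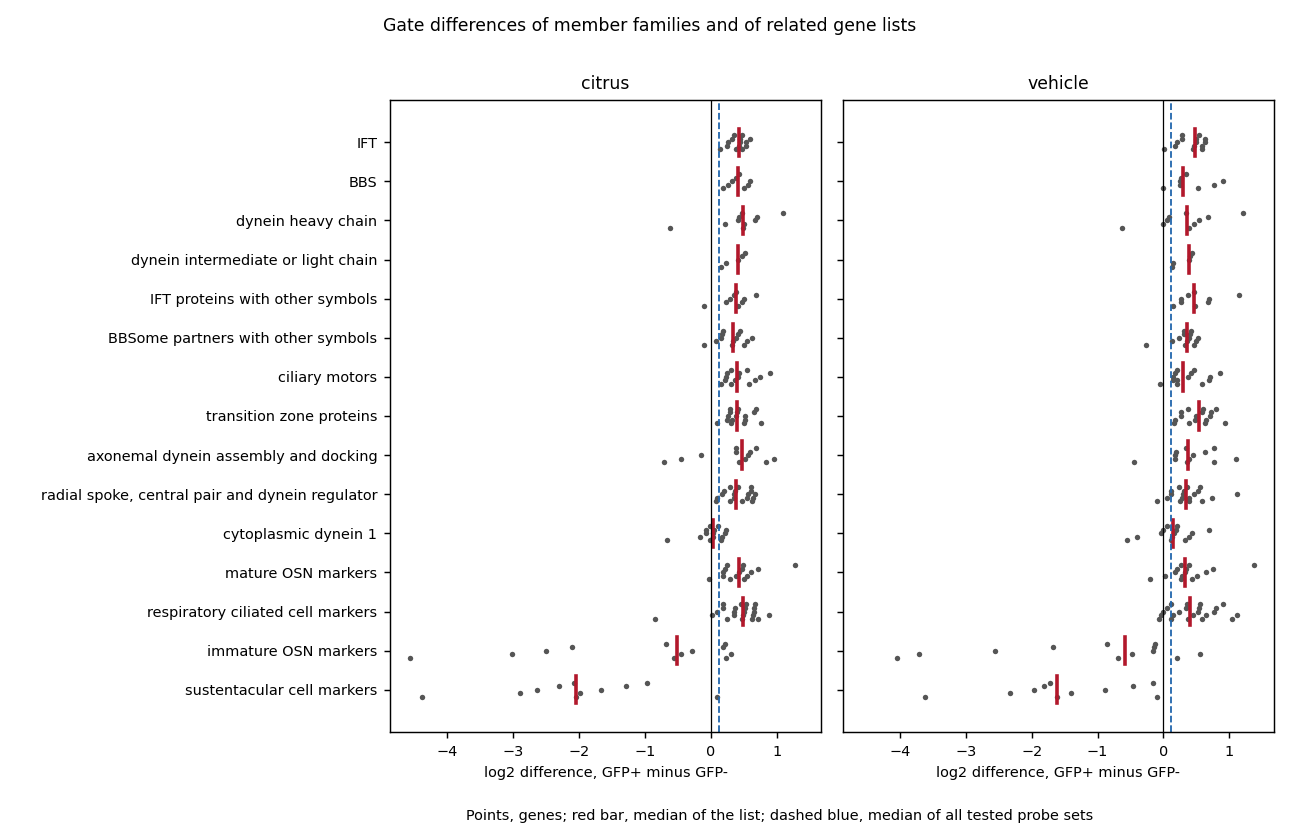
Log2 difference, GFP+ minus GFP-, of each gene (points) of the 4 families and of related gene lists, with the median of each list (red bar), the median of all probe sets (dashed line, 0.13 and 0.11) and 0 (black line), for citrus (left) and vehicle (right) mice. The medians of the 4 families lie between 0.30 and 0.49. Those of the mature OSN markers (0.43 and 0.32) and of the respiratory ciliated cell markers (0.48 and 0.41) are near this range. So are those of the radial spoke (0.39 and 0.34) and transition zone lists (0.39 and 0.54). The cytoplasmic dynein 1 list, which includes dynactin and regulator genes, has 0.03 and 0.14, and the medians of sustentacular and immature OSN markers lie below 0.

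The second question was whether the citrus accord changed these genes within a fraction. No gene was called in GFP+ cells (adjusted p of 1 for all 37) or in GFP- cells. Before adjustment, 1 was higher and none lower in GFP+ cells, with 2.06% and 1.99% of all probe sets, and none was higher and 1 lower in GFP- cells, with 2.97% and 2.91%. Over all probe sets 0.0204% were called higher and 0% lower in GFP+ cells and 0.0102% higher and 0.00511% lower in GFP- cells. The differences lay between -0.26 and 0.49 in GFP+ cells and between -0.51 and 0.31 in GFP- cells, with medians of -0.03 and -0.04. The 95% intervals of all 37 lay within -0.81 and 0.97 in GFP+ cells and within -0.99 and 0.82 in GFP- cells, so a change within these bounds may have gone undetected with 4 arrays a group.

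Within GFP+ cells Dnah5 had the largest difference, 0.49 ± 0.23 (unadjusted p = 0.050, 95% interval 0.00 to 0.97), with overlap of the citrus and vehicle arrays given above. Ift57 was the 1 gene whose citrus GFP+ arrays (12.82 to 13.05) all lay above the vehicle GFP+ arrays (12.65 to 12.75), where 1.47% of all probe sets were higher without overlap and 1.26% lower (none of the 37 was lower; 0.22 ± 0.12, unadjusted p = 0.099). Within GFP- cells Dnah11 had the largest, -0.51 ± 0.23 (unadjusted p = 0.036, adjusted p = 0.83). Ift74 was the 1 gene whose citrus GFP- arrays (13.64 to 13.88) all lay below the vehicle GFP- arrays (13.89 to 14.07), where 1.57% of all probe sets were lower without overlap and 1.26% higher (none of the 37 was higher; -0.18 ± 0.13, unadjusted p = 0.18). The gaps between these groups were small, 0.07 for Ift57 and 0.01 for Ift74.

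The gate difference itself was compared between the stimuli by the interaction term. It was called for none of the 37 genes and for 0% of all probe sets. The largest values were 0.75 ± 0.33 for Dnah5 (unadjusted p = 0.035, adjusted p = 1), the 1 gene under 0.05 before adjustment (1.92% of all probe sets were higher and 1.77% lower by that rule), and -0.49 ± 0.37 for Dnah7a (unadjusted p = 0.20). For Bbs4, called in both stimuli, the difference of gate differences was 0.06 ± 0.23 with an interval from -0.43 to 0.55. For Ift57 it was 0.36 ± 0.17 with an interval from -0.01 to 0.73. The citrus gate call of Ift57 and the vehicle gate calls of Dnah7a and Bbs7 therefore stand without a difference between stimuli that passed the test.

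**Figure D5:**
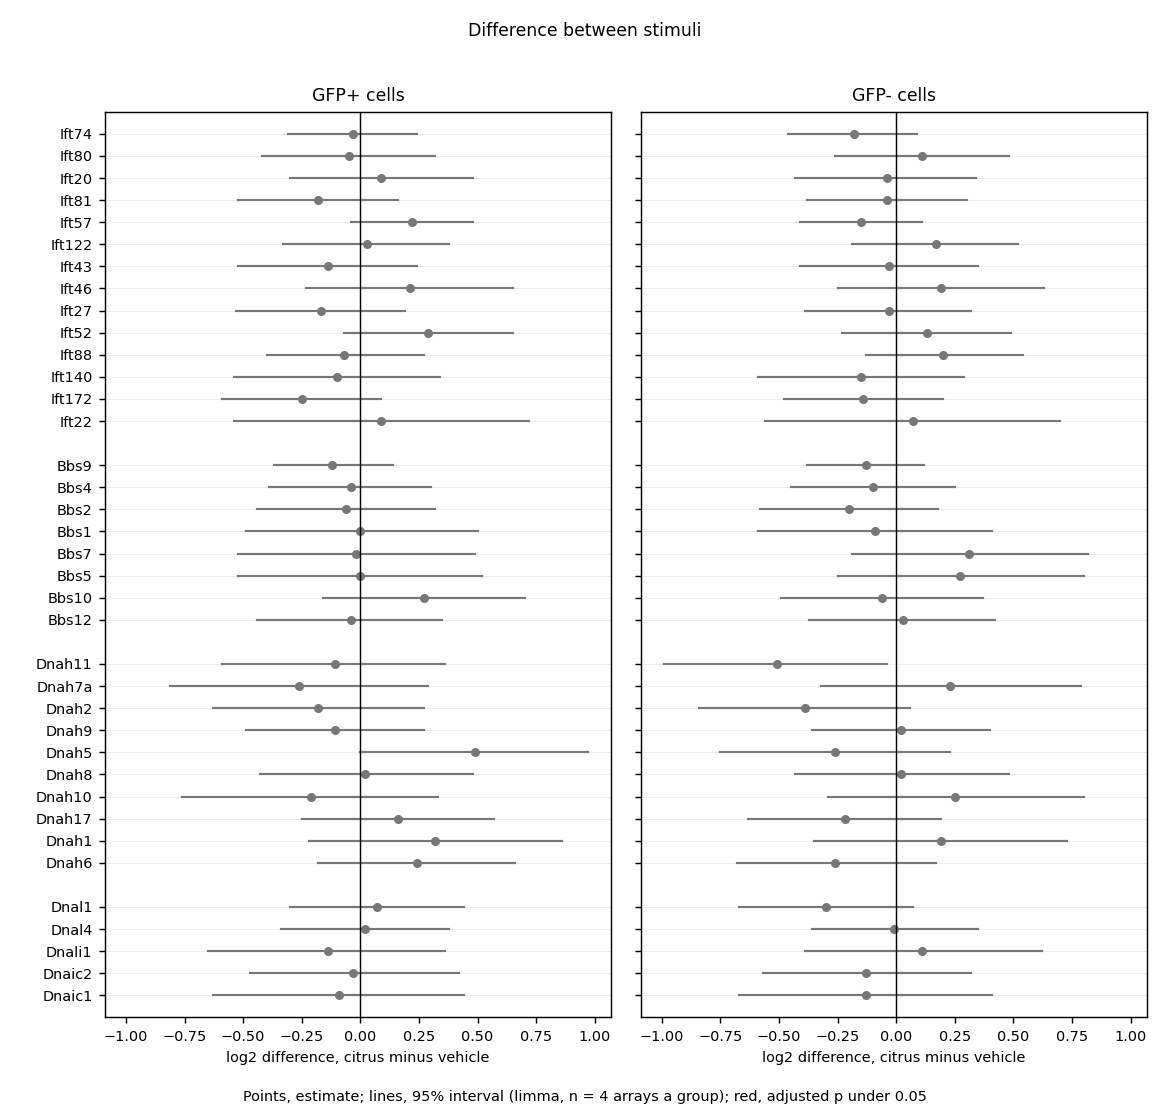
Log2 difference, citrus minus vehicle, of each gene with its 95% interval, in GFP+ cells (left) and GFP- cells (right). All points are grey, since no gene was called; differences range from -0.26 to 0.49 on the left and from -0.51 to 0.31 on the right.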

How the data were processed

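RNA of sorted cells was measured on 16 Clariom S arrays, each a pool of 3 mice; per the labels, 50 to 100 ng of total RNA went into each biotinylated cRNA. The authors deposited log2 gene-level values (the log2 scale is read from the values, and 1 sample's label names SST-RMA for the gene-level signal), and the submitters' processing notes name Affymetrix Expression Console (software version and genome build: not given in the sources used here). They were used as deposited, and 0 columns belonged to other samples. Symbols came from the platform annotation: 19572 probe sets with 1 symbol were tested, 2634 without a symbol and 6640 controls were not. All 37 members matched a RefSeq gene table (GRCm38.p6), which changed 0 symbols.

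Groups came from the labels. The test was limma's, checked on simulated data (version 3.58.1, R 4.3.3; 1 mean per group, all 16 arrays, empirical Bayes, two-sided, Benjamini-Hochberg over all tested probe sets, threshold 0.05). Its p-values measure the spread between the arrays of a group, each from a different pool. The reported fit had no term for the pool, so they do not measure the spread of the gate difference within pools. Arrays give no read depth, and their number limits the precision. Genes were described array by array by rule: per family and comparison up to 6 past the threshold by size, and with fewer than 3, also the 3 of highest mean level; lists gave up to 4 genes past the threshold, and S100a5, Omp and Foxj1 were always named. Dnah8 was singled out after its values were seen. The members and lists were chosen with earlier results of these data known. Arrays of one group correlated at 0.985 to 0.992, with 0 identical pairs. Deviations of the 2 fractions of one replicate number correlated at 0.075 to 0.275 (consensus correlation 0.164); the pairing comes from the mouse numbers in the labels, not from this check. Alternatives covered scaling, pool block, filter, prior, array weights and leaving out each pool. Figures were drawn with matplotlib 3.10.9.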

Additional observations from a re-analysis of the deposited data

Results flagged for a closer look

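In 5 of 148 groups of 4 arrays, 1 array stood far from the other 3 by Dixon's test (95% critical value), where chance gives about 5% of groups. Ift22 was 11.64 in vehicle GFP+ pool 1, against 11.06 to 11.09 in the other vehicle GFP+ arrays. Ift172 was 11.08 in vehicle GFP+ pool 3, against 11.44 to 11.50. Dnal4 was 11.26 in vehicle GFP+ pool 4, against 10.92 to 10.97. Ift140 was 11.01 in citrus GFP+ pool 2, against 11.19 to 11.22. Dnah1, below background, was 3.61 in vehicle GFP+ pool 3, against 2.75 to 2.85. Of the 5, 4 lay in the vehicle GFP+ group. No gene had gate differences of opposite sign in all pools of the 2 stimuli.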

How the results depend on the processing

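Counts of genes called in the gate comparisons depended on scaling and pools, and those of citrus minus vehicle and of the interaction were 0 in every alternative run. In citrus mice, in place of 6 higher and 0 lower, there were 34 higher with array medians set to a common value, 0 higher and 1 lower centred on the mature OSN markers, 3 and 1 with only the groups compared, 11 and 1 with the replicate block, 10 and 1 with array weights, and 1 lower (7 higher) after quantile normalization. Leaving out 1 pool gave 2 to 8 higher and 0 to 1 lower. In vehicle mice, in place of 10 and 0, there were 28 higher with common array medians, 1 higher and 1 lower centred on the mature OSN markers, 4 higher with only the groups compared, 12 and 1 with the replicate block, 10 and 1 with array weights and 11 and 1 after quantile normalization. Leaving out 1 pool gave 1 to 10 higher and 0 to 1 lower. Shares of all probe sets are given above for the block and the centrings only. The counts of the other settings are therefore not set against all probe sets. The gene called lower was Dnah8, with an adjusted p of 0.0017 and 0.0029 in citrus and vehicle mice when centred on the OSN markers. Ift74 lost its citrus call under that centring, at -0.01 (adjusted p = 0.96), which the common shift of -0.44 fixes. The cause of these changes was not tested, apart from the shift that each centring makes by construction. The citrus call of Ift57 was kept in 16 of 17 settings and that of Dnah5 in 15 of 16, while the weakest, Dnal1 in citrus and Dnah9 in vehicle mice, were kept in 8 of 17 and 8 of 16. These settings include leaving out pools of the other stimulus, which does not shift the gate difference. Of 3048 single values over all comparisons, 2879 stayed on their side of the threshold with the same direction, 74 lost and 94 gained a call, and 1 was reversed in direction. This total includes the citrus minus vehicle and interaction values, which held no call in any run. It therefore does not measure how stable the gate calls were. Genes below background (12 of 37) have no level that can be told from a negative control, which limits Dnah2, Dnah5, Dnah8 and Dnah9.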
